A study of Mus musculus with 12 samples.

Results

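Txnip and its relatives Arrdc1, Arrdc2, Arrdc3 and Arrdc4, which encode 5 alpha-arrestins, were followed together with the MondoA factors Mlxip and Mlx through 12 RNA-Seq libraries of mouse embryonic fibroblasts (MEFs). These 7 genes were taken by name from the 24062 gene symbols of the count table. They were selected with the values of all 4 conditions already known, so their differences are given below as descriptions, with standard errors and intervals but without p-values. All 7 passed the filter on low counts that left 12154 genes for testing. In GENCODE M21 (GRCm38) Txnip lies at chr3:96557957-96561883 and Mlxip at chr5:123394798-123457932 on the plus strand, as do Mlx at chr11:101087277-101092207 and Arrdc3 at chr13:80883384-80896042. Arrdc1 (chr2:24925352-24935252), Arrdc2 (chr8:70835129-70839720) and Arrdc4 (chr7:68736995-68749241) lie on the minus strand.

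The control line stably expressed shRenilla, a short hairpin RNA against Renilla luciferase, which mouse cells lack, and the knockdown line expressed shBruce, a hairpin against Birc6, the gene of the giant ubiquitin ligase BRUCE. Each line was either kept in full medium (FM) or put through 2 h of starvation (Starv). There were 3 replicate libraries in each of the 4 conditions. The RNA-Seq methods of the paper do not name the starvation medium. Several of its other starvation assays used Earle's balanced salt solution, and its MEFs were maintained in high-glucose DMEM with serum. Whether glucose supply differed between FM and Starv is not stated, and its part in the results below was not tested. The shBruce libraries came from 1 hairpin (shBruce#1), so the knockdown and any other property of that line cannot be told apart. The labels do not say whether replicates were separate cultures, and the p-values below measure the spread between these libraries only.

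Alpha-arrestins share the arrestin fold with the better known beta-arrestins and act as adaptors: they bind membrane proteins and recruit NEDD4-family ubiquitin ligases, so that the cargo is ubiquitinated and internalised. TXNIP, the thioredoxin-interacting protein, also binds reduced thioredoxin, and both TXNIP and ARRDC4 lower glucose uptake by removing glucose transporters from the plasma membrane. Txnip and Arrdc4 are textbook targets of MondoA, the product of Mlxip, which senses glucose 6-phosphate and binds DNA together with its partner MLX at carbohydrate response elements, a pair of E-boxes (CACGTG or similar) set 5 bases apart.

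The 250 bases before the RefSeq transcription start (build GRCm38.p6) are printed for Txnip, Arrdc4 and Arrdc2, the 3 members that were higher after starvation in both lines by the test applied to all genes. Capitals mark matches, on either strand, to the CCAAT box (ATTGG on the other strand), to the E-box CACGTG, to the forkhead word GTAAACA and, in Txnip, to a tandem element with at most 2 mismatches to the 12 letters of 2 CACGTG words 5 bases apart. Each sequence is written 5′ to 3′ on the strand of its gene.
Txnip, chr3:96557707-96557956, plus strand: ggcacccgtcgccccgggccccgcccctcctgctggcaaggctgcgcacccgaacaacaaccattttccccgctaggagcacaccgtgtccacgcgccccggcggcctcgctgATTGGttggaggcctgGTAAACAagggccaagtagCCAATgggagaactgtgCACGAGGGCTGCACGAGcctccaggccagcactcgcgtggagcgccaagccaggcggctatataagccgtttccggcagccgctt
Arrdc4, chr7:68749239-68749488, minus strand: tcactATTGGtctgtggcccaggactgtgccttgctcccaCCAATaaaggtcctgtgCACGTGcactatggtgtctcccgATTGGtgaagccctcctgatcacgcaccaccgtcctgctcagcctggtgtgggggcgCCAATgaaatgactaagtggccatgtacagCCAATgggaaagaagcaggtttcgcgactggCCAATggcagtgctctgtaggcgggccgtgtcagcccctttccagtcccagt
Arrdc2, chr8:70839721-70839970, minus strand: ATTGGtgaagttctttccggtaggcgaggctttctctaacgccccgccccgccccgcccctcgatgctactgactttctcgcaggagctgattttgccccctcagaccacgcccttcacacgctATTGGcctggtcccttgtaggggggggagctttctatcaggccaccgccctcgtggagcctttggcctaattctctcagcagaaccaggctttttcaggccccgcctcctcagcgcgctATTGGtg

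In Txnip the tandem element lay from 85 to 69 bases before the start, between the nearer CCAAT box and the TATA-like stretch visible in the sequence. A tandem match with at most 2 mismatches was present in 0.953% of the 32851 promoter windows of RefSeq (250 bases before to 50 after a start). The same window of Txnip held 2 CCAAT boxes, and 11.7% of all windows held at least 2. It also held 1 forkhead word, found in 3.65% of them. Arrdc4 held 6 CCAAT boxes, a number reached by 0.0791% of windows, and 1 intact E-box, which 7.15% of windows held. The closest tandem match in Arrdc4 had 3 mismatches, a cut-off for which no share of windows was computed. A match with at most 4 was present in 44.1% of windows. The closest match had 4 mismatches in Arrdc1, Arrdc2, Arrdc3 and Mlx, and 5 in Mlxip. Arrdc2 held 3 CCAAT boxes and neither an E-box nor a forkhead word. Of the other members, Mlx held 2 CCAAT boxes and 1 E-box, Mlxip held 2 CCAAT boxes, Arrdc3 held at most 1 in any of its 3 annotated windows, and Arrdc1 held none, beside 37.4% of all windows with at least 1. These matches describe the letters in the window and not binding.

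**Figure D1:**
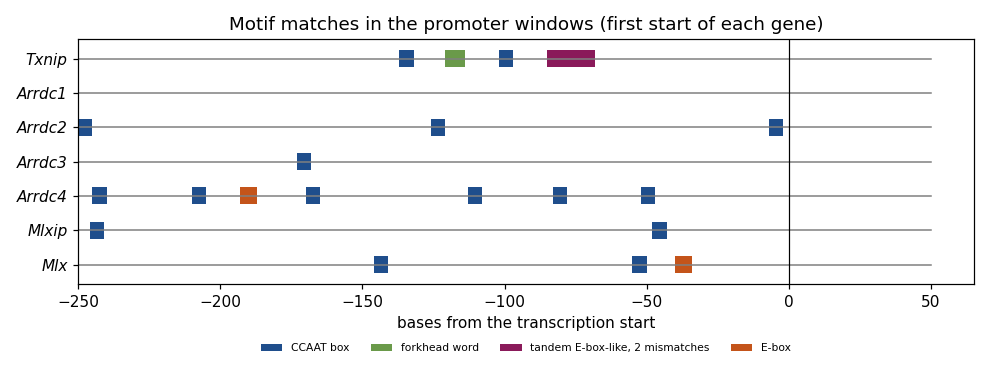
Position of motif matches in the promoter window of each of the 7 genes (first annotated start), with the distance from the transcription start in bases on the horizontal axis and 1 gene per row. Arrdc4 carries 6 CCAAT boxes, and the tandem E-box-like element with 2 mismatches is drawn in Txnip, 85 to 69 bases before the start.

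Total counts ranged from 7717265 (shBruce Starv 1) to 18510540 (shRenilla FM 1). The libraries of shBruce Starv stood apart from each other: their root mean square deviation from the condition mean was 0.288 to 0.411 on the log2 scale over all genes tested, against 0.144 to 0.202 in the 6 shRenilla libraries and 0.216 to 0.332 in shBruce FM. The largest value, 0.411, was that of shBruce Starv 1, and that of shBruce Starv 3 was 0.398. Results below are also given without shBruce Starv 3 where it moved them, and for Txnip in Starv without shBruce Starv 1 as well. Birc6 was 1.75 lower (log2, SE 0.25) in shBruce than in shRenilla MEFs in FM and 1.98 lower (SE 0.25) in Starv, with edgeR adjusted p-values of 0.0627 and 0.0186. Of 7 fibroblast markers, 6 had a mean of at least 10 normalized counts in every condition, and Thy1 was near 0 in every library. The 5 markers of epithelial, haematopoietic and endothelial cells summed to between 11.9 and 36.3 normalized counts per library, and Ptprc, which marks haematopoietic cells, was higher in shBruce than in shRenilla MEFs in Starv (log2 fold change 1.52, adjusted p 0.0283), at 14.9 to 18.2 normalized counts. The part of these differences in the results below was not tested.

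Txnip was the member with the largest difference after starvation. Counts were divided by each library's TMM-scaled size, relative to the average library (normalized counts). In shRenilla MEFs Txnip stood at 279, 242 and 271 normalized counts in FM (264 ± 19.3, SD, n = 3) and at 3388, 3409 and 3248 in Starv (3348 ± 87.3). The shRenilla libraries of both media were far apart, with little spread within either medium. In shBruce MEFs the FM libraries held 128, 130 and 95.2 (118 ± 19.6) and the Starv libraries 1171, 1669 and 4296 (2378 ± 1679). All starved libraries thus lay above all libraries in FM, but the starved shBruce libraries disagreed with each other, replicate 3 alone lying above the shRenilla range and the other two far below it. The fitted starvation difference was 3.66 (log2, SE 0.38, 95% interval 2.85 to 4.48) in shRenilla MEFs, a 12.7-fold difference that ranked 4 of 12154 genes from the highest. In shBruce MEFs it was 4.34 (SE 0.40, interval 3.48 to 5.20), or 20.3-fold, rank 5. Here and below, a shared estimate of each gene's spread served all 4 conditions, unless only the 2 conditions compared were fitted. The shRenilla interval thus also carries the scatter of shBruce Starv, where the SD of Txnip was 70.6% of the mean. In shRenilla FM and shRenilla Starv that share was 7.29% and 2.61%. Without shBruce Starv 3 the shBruce value was 3.59, and without shBruce Starv 1 it was 4.65.

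Arrdc4, a close relative of Txnip that also acts on glucose uptake, was the least abundant member per kilobase of transcript and had the second largest difference. It rose from 35.1, 40.6 and 41.2 normalized counts in shRenilla FM to 147, 161 and 173 in shRenilla Starv. In shBruce MEFs it was at 41.4, 35.6 and 14.9 in FM and at 78.7, 111 and 143 in Starv. No FM library overlapped a Starv library in either line. The fitted difference was 2.04 (log2, SE 0.28) in shRenilla MEFs, rank 74 of 12154, and 1.89 (SE 0.30) in shBruce MEFs, rank 162. Without shBruce FM 3, which held the lowest value of the 12 libraries, the latter was 1.55.

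Arrdc2 was about double in Starv. Its normalized counts were 52.9 to 65.8 over the 6 FM libraries of both lines, 113, 134 and 125 in shRenilla Starv, and 131, 144 and 200 in shBruce Starv. The fitted starvation difference was 1.04 (log2, SE 0.18) in shRenilla and 1.32 (SE 0.19) in shBruce MEFs. Arrdc1, whose product drives the budding of small vesicles from the plasma membrane, moved least among the alpha-arrestins. It was at 221 ± 14.6 in shRenilla FM, 284 ± 31.0 in shRenilla Starv, 271 ± 49.2 in shBruce FM and 378 ± 43.9 in shBruce Starv (SD, n = 3). Its fitted difference was 0.37 (SE 0.16) and 0.47 (SE 0.16) in the shRenilla and shBruce lines.

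Arrdc3, an adaptor known for the down-regulation of the beta2-adrenergic receptor and integrin beta4, was the only alpha-arrestin with a negative fitted difference after starvation. It was at 633, 484 and 590 normalized counts in shRenilla FM and at 299, 344 and 251 in shRenilla Starv, groups that did not overlap. The shBruce libraries gave 417, 359 and 822 in FM and 113, 129 and 651 in Starv. In both media replicate 3 of shBruce MEFs was far above the other two, and the shBruce groups overlapped. The fitted difference was -0.93 (log2, SE 0.51) in shRenilla and -0.80 (SE 0.52) in shBruce MEFs, neither past the threshold. Without shBruce Starv 3 both passed it, and the shBruce value was -2.13. Without shBruce FM 3 the shBruce value was -0.35. The 2 shBruce libraries of replicate 3 were thus the highest of the 12 for Arrdc3, and shBruce Starv 3 was also the highest for Txnip and Arrdc2.

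**Figure D2:**
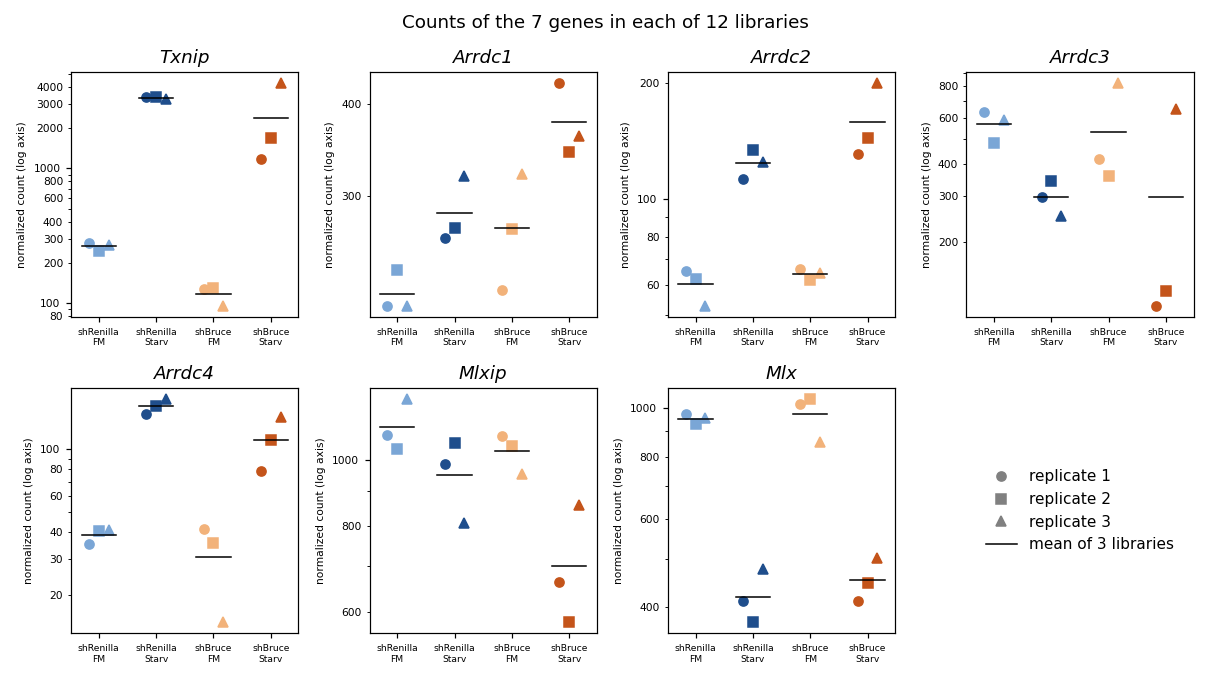
Normalized counts (log axis) of each of the 7 genes in the 12 libraries, by line (shRenilla or shBruce) and medium. Symbols give the replicate number and black lines the mean of 3 libraries. Txnip and Arrdc4 in Starv lie above all FM libraries, Mlx in Starv lies below them, and Arrdc3 is highest in replicate 3 of shBruce FM and shBruce Starv.

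Mlx, the obligate partner of MondoA, went the other way. It was at 974, 929 and 955 normalized counts in shRenilla FM and at 411, 373 and 476 in Starv. In shBruce MEFs it was at 1018, 1042 and 857 in FM and at 412, 447 and 502 in Starv. The media were separated in both lines, and the starved libraries of the lines overlapped. The fitted difference was -1.18 (log2, SE 0.13), rank 213 from the lowest of 12154, in shRenilla MEFs and -1.10 (SE 0.13) in shBruce MEFs. Over 385 exon bases Mlx overlaps Psmc3ip on the opposite strand, whose raw counts ranged from 288 to 647 over the libraries. The sources used here do not say whether strand was used in counting, so reads of that stretch cannot be assigned.

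Mlxip, which encodes MondoA itself, had the smallest starvation difference of the 7 genes in shRenilla MEFs. It was at 1118 ± 98.0 normalized counts in shRenilla FM, 952 ± 129 in shRenilla Starv, 1030 ± 67.8 in shBruce FM and 701 ± 143 in shBruce Starv (SD, n = 3). The starvation difference was -0.23 (log2, SE 0.15) in shRenilla MEFs, where the media overlapped, and -0.55 (SE 0.16) in shBruce MEFs, where they did not. The shBruce call was lost without shBruce FM 1, shBruce FM 2 or shBruce Starv 2, and when only the 2 conditions compared were fitted. Mlxip shares 267 exon bases with the antisense gene Gm15747, not analysed here. Txnip shares 606 with the antisense gene Gm15441, whose raw counts were 1 to 14, beside 96 to 4625 for Txnip.

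Set per kilobase of the longest coding transcript (GENCODE M21), the members changed order with the medium. In shRenilla FM Mlx was first at 485 normalized counts per kb, followed by Mlxip at 153, Arrdc3 at 139 and Arrdc1 at 132, 3 genes whose replicate ranges ran into each other in that order. Txnip followed at 93.4, above Arrdc2 at 25.5 and Arrdc4 at 9.98, with ranges apart. In shRenilla Starv Txnip was first at 1184 per kb. Mlx at 214 and Arrdc1 at 171 then overlapped, and Mlxip at 130, Arrdc3 at 72.7, Arrdc2 at 52.6 and Arrdc4 at 41.1 followed without overlap. The order in shBruce FM was Mlx at 495, Arrdc1 at 163, Mlxip at 141, Arrdc3 at 130, Txnip at 41.7, Arrdc2 at 27.2 and Arrdc4 at 7.84 per kb, with overlap among Arrdc1, Mlxip and Arrdc3. In shBruce Starv it was Txnip at 841, Mlx at 231, Arrdc1 at 227, Mlxip at 96.0, Arrdc3 at 72.6, Arrdc2 at 67.2 and Arrdc4 at 28.4, with overlap between Mlx and Arrdc1 and along the run from Mlxip to Arrdc2. Arrdc3, at 27.6 to 159 per kb in that condition, also overlapped Arrdc4.

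Txnip accordingly made up a different part of the alpha-arrestin transcripts in the 2 media. Of the per-kb level summed over the 5 genes, Txnip took 23.3% ± 0.833 in shRenilla FM and 77.8% ± 1.26 in shRenilla Starv, and 11.8% ± 3.87 in shBruce FM and 64.4% ± 10.9 in shBruce Starv (SD, n = 3). The other 4 genes together summed to 307 ± 10.8, 337 ± 18.5, 328 ± 83.9 and 395 ± 90.1 per kb in these conditions. The total over all 5 genes went from 400.1 ± 17.1 to 1521 ± 26.2 per kb in shRenilla MEFs and from 370 ± 77.0 to 1237 ± 680 in shBruce MEFs.

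**Figure D3:**
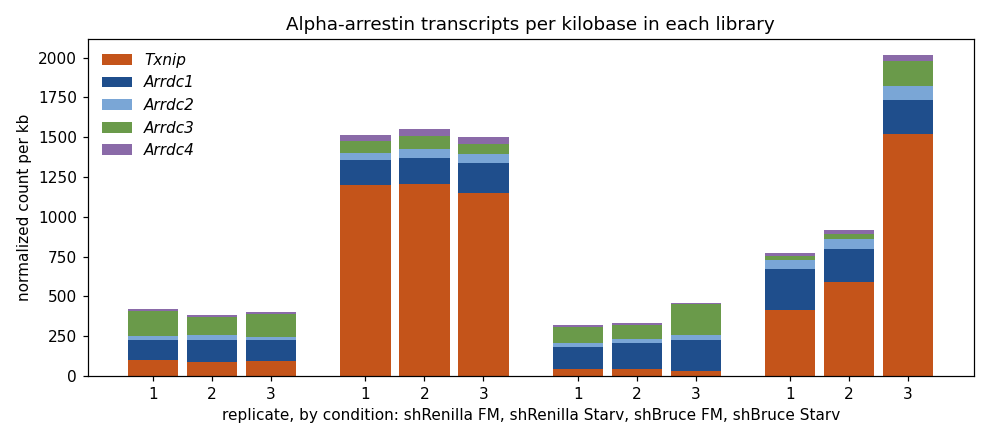
Normalized counts per kilobase of the 5 alpha-arrestin genes, stacked for each library, with the 3 replicates of the 4 conditions along the horizontal axis. The Txnip segment fills most of each bar in Starv (77.8% on average in shRenilla Starv) and a small part in FM, and the third shBruce Starv bar is the tallest at 2017 per kb.

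By edgeR's quasi-likelihood test with Benjamini-Hochberg adjustment over all 12154 genes (threshold 0.05), 3 of 7 members were called higher in Starv in shRenilla MEFs (Txnip, Arrdc2 and Arrdc4), beside 9.69% of all genes, and 1 was called lower (Mlx), beside 7.27%. The replicates of the 2 media did not overlap for 6 of 7 members, beside 52.4% of all genes. In shBruce MEFs 4 were called higher (Txnip, Arrdc1, Arrdc2 and Arrdc4), beside 12.4%, and 2 lower (Mlxip and Mlx), beside 10.6%, and 6 of 7 did not overlap, beside 30.9%. The members were chosen on these same comparisons, so nothing is read from their counts. The call of Arrdc1 was lost in 9 of the 12 fits that left out 1 library and was kept without shBruce FM 3, shBruce Starv 2 or shBruce Starv 3. It was also lost with no filter on low counts and with replicate number as a block. Removing each library's trends with transcript length and GC content, or fitting only the 2 conditions compared, lost it as well.

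Between the lines, Txnip was lower in shBruce than in shRenilla MEFs in FM. The shBruce FM libraries, at 95.2 to 130 normalized counts, all lay below the shRenilla FM range of 242 to 279. The fitted difference was -1.17 (log2, SE 0.37, interval -1.97 to -0.36), rank 96 from the lowest of 12154. No member was called in FM, beside 0% of all genes in either direction, although 1750 genes had an unadjusted p under 0.05. The lowest adjusted p, 0.0627, was that of Birc6 given above. DESeq2's Wald test called 76 genes and limma-voom 0 in this comparison, with no member among them. Txnip was called without shBruce Starv 3, in which case 32 genes were called in all. Its replicates were the only ones of the 7 members that did not overlap between the lines in FM, beside 33.4% of all genes. The other 6 differed between the lines in FM by -0.35 (Arrdc4) to 0.30 (Arrdc1), each with an interval that included 0. Arrdc4 was at -0.015 without shBruce FM 3 and at -0.63 without shBruce FM 1, and Arrdc1 was at 0.054 with the trends of each library with transcript length and GC content removed. Arrdc3, at -0.09, was at -0.55 without shBruce FM 3.

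In Starv the line difference of Txnip was -0.49 (log2, SE 0.34, interval -1.21 to 0.24), with overlap. Without shBruce Starv 3 it was -1.24, and without shBruce Starv 1 it was -0.18. Arrdc4 was lower in every shBruce Starv library than in any shRenilla Starv library (-0.50, SE 0.27). Arrdc1 was higher in every shBruce Starv library (0.41, SE 0.16), but its difference was -0.050 once each library's trends with transcript length and GC content were removed. Mlxip differed by -0.44 (SE 0.16) and Arrdc2 by 0.37 (SE 0.18), values that became -0.17 and 0.064 with the trends removed. Without shBruce Starv 3 the difference of Arrdc2 was 0.16. Mlx differed by 0.12 (SE 0.13). Arrdc3 differed by 0.03 (SE 0.52), and by -1.29 without shBruce Starv 3. Groups did not overlap for 2 of 7 members, beside 34.9% of all genes. No member was called, beside 12.8% of genes called higher and 11.2% called lower, with 5009 genes at an unadjusted p under 0.05. DESeq2's Wald test called 2 members (Arrdc1 and Mlxip) and limma-voom 0. The fit without shBruce Starv 3 called 4 (Txnip, Arrdc3, Arrdc4 and Mlxip), and the fit without shRenilla Starv 3 called 1 (Mlxip).

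The difference of the starvation differences (the interaction of line and medium) was 0.68 (log2, SE 0.50, interval -0.41 to 1.76) for Txnip, -0.15 (SE 0.42) for Arrdc4, 0.28 (SE 0.26) for Arrdc2, 0.11 (SE 0.22) for Arrdc1 and 0.13 (SE 0.72) for Arrdc3. It was 0.09 (SE 0.18) for Mlx and -0.32 (SE 0.22) for Mlxip. No member was called and 0% of all genes were, although 474 genes had an unadjusted p under 0.05. The lowest adjusted p was 0.806, and DESeq2 and limma-voom called no gene either. Without shBruce Starv 3 the value of Txnip was -0.070, and that of Arrdc3 was -1.20. Without shBruce Starv 1 the value of Txnip was 0.98. The 4 comparisons of 2 conditions share libraries with each other, shRenilla FM being the control of both starvation in shRenilla and the line difference in FM, so their values are not independent.

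**Figure D4:**
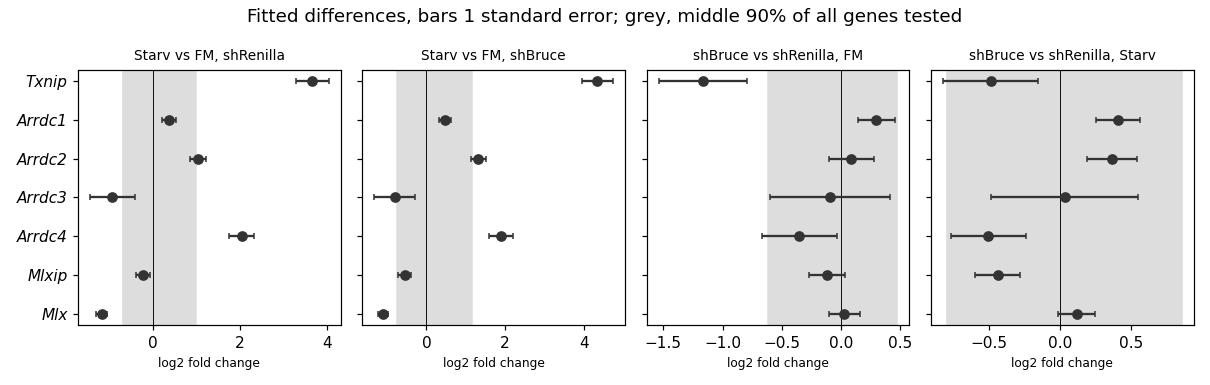
Fitted log2 fold changes of the 7 genes in the 4 comparisons of 2 conditions, with bars of 1 standard error and the middle 90% of all 12154 genes in grey. Txnip (3.66 and 4.34), Arrdc4 (2.04 and 1.89) and Arrdc2 (1.04 and 1.32) lie right of the grey band under starvation in both lines. Mlx (-1.18 and -1.10) and Arrdc3 (-0.93 and -0.80) lie left of it there. In the comparison of the lines in FM, Txnip (-1.17) lies left of the band.

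Of 34 genes on 5 lists of related genes that are not members, 29 were tested, and these carry adjusted p-values. The lists too were chosen with earlier results of these data known, so these p-values are not independent of that choice. In shRenilla MEFs 3 of the 29 rose and 3 fell after starvation, beside 9.69% and 7.27% of all genes. In shBruce MEFs 3 rose and 4 fell, beside 12.4% and 10.6%. These counts were near the shares over all genes. Their medians were 0.08 and -0.13 (log2), beside -0.01 and 0.02 over all genes tested. Between the lines none was called in FM, where 0% of all genes were. In Starv 3 were higher and 6 lower in shBruce MEFs, beside 12.8% and 11.2% of all genes. None was called in the interaction.

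Of the other dimerisation partners of MLX, the 3 that were tested, all repressors of the MXD and MNT group, rose in both lines. Over all genes 9.69% were called higher in shRenilla and 12.4% in shBruce MEFs. The list was chosen with earlier results known, so nothing is read from this count. Mnt, which antagonises MYC at E-boxes, rose from 412, 517 and 500.0 normalized counts in shRenilla FM to 1610, 1602 and 1576 in shRenilla Starv, and from 377, 401 and 443 to 1863, 1502 and 1753 in shBruce MEFs. The difference was 1.74 (log2, SE 0.13, edgeR adjusted p 1.95e-06) in shRenilla and 2.07 (SE 0.13, adjusted p 4.17e-07) in shBruce MEFs. Mxd1 rose by 0.87 (adjusted p 0.00314) and 0.91 (adjusted p 0.00217), and Mxd4 by 0.85 (adjusted p 0.00801) and 0.73 (adjusted p 0.0142). Mlx, itself chosen on these data, fell in the same libraries in which these 3 partners rose. The fourth partner on the list, Mlxipl, which encodes the MondoA paralog ChREBP of liver and fat, had a raw count of 0 or 1 in every library and was not tested.

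Among genes of glucose uptake and its first steps, 7 of 8 on the list were tested, with the catalytic subunits of AMPK included. Slc2a1, the gene of the glucose transporter GLUT1 that TXNIP internalises, fell by 0.82 in both lines (edgeR adjusted p 6.39e-04 in shRenilla and 6.09e-04 in shBruce MEFs), from 1330 to 1442 normalized counts in shRenilla FM to 745 to 830 in Starv. Hk2, a hexokinase that makes glucose 6-phosphate, fell by 0.54 in shRenilla MEFs (adjusted p 0.0298), a call lost without any 1 of the 6 shRenilla libraries. Its difference in shBruce MEFs was -0.26 (adjusted p 0.244). In Starv, Prkaa1 and Prkaa2, which encode the AMPK catalytic subunits, were lower in shBruce MEFs, by -0.53 (adjusted p 0.029) and -1.03 (adjusted p 0.0225).

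Of the 5 genes of the thioredoxin system, Txnrd1, the cytosolic thioredoxin reductase, fell after starvation by 0.49 in shRenilla MEFs (edgeR adjusted p 0.0176) and by 0.67 in shBruce MEFs (adjusted p 0.00228). The call in shRenilla MEFs was lost without any 1 of the shRenilla libraries except shRenilla FM 2. Txn1, which encodes the thioredoxin bound by TXNIP, differed by -0.27 (adjusted p 0.35) and 0.18 (adjusted p 0.505). In Starv, Txn1 was 0.69 higher (adjusted p 0.0271) and Txn2, the mitochondrial thioredoxin, 0.47 higher (adjusted p 0.0472) in shBruce MEFs.

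The list of NEDD4-family ubiquitin ligases, which alpha-arrestins recruit, also holds the ligase adaptors Ndfip1 and Ndfip2, and 9 of its 11 genes were tested. None was called after starvation in shRenilla MEFs. In shBruce MEFs Smurf1 and Smurf2 fell after starvation by 0.52 (edgeR adjusted p 0.015) and 0.53 (adjusted p 0.0173). The first call was lost without shBruce FM 2, and the second without shBruce FM 1 or shBruce Starv 2. Both were lost when only the 2 conditions compared were fitted. In the comparison of the lines in Starv, 4 of the 9, all of them ligases, were lower in shBruce MEFs, beside 11.2% of all genes, the largest differences being -0.87 for Wwp1 (adjusted p 0.0237), -0.83 for Nedd4 (adjusted p 0.0372) and -0.66 for Itch (adjusted p 0.042). Of 5 other arrestin-fold genes tested, Arrb2, a beta-arrestin, was 0.46 higher in shBruce Starv (adjusted p 0.0372), and none was called after starvation. All 9 calls between the lines in Starv were lost when the length and GC trends were removed, and also when only the 2 conditions compared were fitted, where no gene at all was called by edgeR and 3662 had an unadjusted p under 0.05. No call among the 9 remained without shRenilla Starv 1, shRenilla Starv 2 or shBruce Starv 2, whereas 16 list genes were called without shBruce Starv 3.

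**Figure D5:**
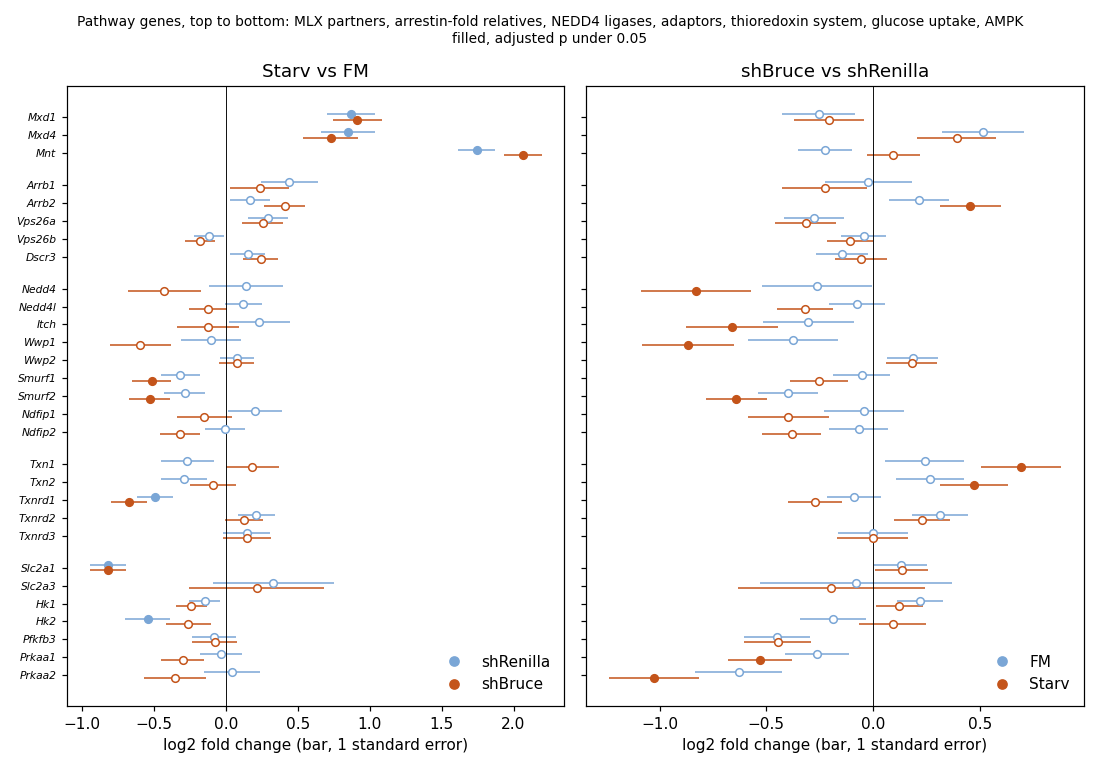
Fitted log2 fold changes with bars of 1 standard error for the 29 tested genes of the 5 lists, starvation at left (blue, shRenilla; orange, shBruce) and shBruce against shRenilla at right (blue, FM; orange, Starv). Filled points passed an adjusted p of 0.05, among them Mnt, Mxd1, Mxd4 and Slc2a1 in both lines under starvation.

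The genes whose log2 normalized counts were most like those of Txnip over the 12 libraries, of 10363 with a mean of at least 50 normalized counts, were Klf11 (Pearson r = 0.994, Spearman rho = 0.951), Epc1 (r = 0.989), Vash2 (r = 0.988), Atg12 (r = 0.988) and Hs1bp3 (r = 0.987). Klf11 encodes a zinc-finger transcription factor and Atg12 a ubiquitin-like protein of autophagosome formation. For Arrdc4 they were 4931414P19Rik, Slc25a27 and Epc1 (r = 0.976 to 0.977), so that Epc1, a subunit of the NuA4 acetyltransferase complex, stood on both lists. Arrdc2 was most like Ankzf1, Lpar2 and Slc3a2 (r = 0.973 to 0.979), Arrdc1 most like Gpt, Slx1b and Tysnd1 (r = 0.968 to 0.973), and Arrdc3 most like Zfp263, Ddhd1 and Il1r1 (r = 0.951 to 0.962). Mlx was most like Id1, Fosl1 and Cdc42se1 (r = 0.983 to 0.987), and Mlxip most like Arhgap31, Bend3 and Clasp1 (r = 0.979 to 0.983). The 12 points fall into 2 media and share their libraries, so these values describe likeness only and carry no p.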

How the data were processed

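Total RNA was poly(A)-enriched and sequenced as single reads of 50 bases. Per the labels and the methods, the authors mapped reads to mm10 with STAR (2.4.0d) after removing rRNA reads, and the deposited counts are raw reads per gene symbol from HTSeq (0.5.4p3). The annotation, strand setting and treatment of overlapping genes are not given in the sources used here. Spreadsheet conversion had turned 27 symbols into dates (0.296% of counts).

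Counts were tested with edgeR 4.0.16 (R 4.3.3): TMM scaling, filterByExpr, a quasi-likelihood fit of all 12 libraries with a mean per condition, two-sided tests and Benjamini-Hochberg adjustment over 12154 genes. The study's own method was limma-voom, which is an alternative here (limma 3.58.1), as is DESeq2 1.42.0. Each gene's spread was estimated over all 4 conditions together, and the standard errors and intervals rest on it. No batch is named in the labels or the table. Scripts were tested on simulated data. Transcript lengths, GC content and overlaps came from GENCODE M21 (22724 of 24062 symbols matched, and 95.3% of the genes tested), promoters from RefSeq by symbol (7 of 7 members matched). Totals of 7717265 to 18510540 counts bear on the precision of low genes, as does the spread between libraries. The members and gene lists were chosen with earlier results of these data known. Named were all 7 members, called list genes (up to 3 each way per list and comparison), Slc2a1, Hk2, Txn1, Txnrd1, Birc6, and the genes with the highest correlation (5 for Txnip, 3 for each other member, on log2 values with a prior of 0.5).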

Additional observations from a re-analysis of the deposited data

How the results depend on the processing

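The starvation difference of Txnip stayed between 3.59 (without shBruce Starv 3) and 4.65 (without shBruce Starv 1) in shBruce MEFs and between 3.59 and 3.70 in shRenilla MEFs over the fits that left out 1 library. Without both replicate 3 libraries of shBruce MEFs, which was tried only after the data had been seen, it was 3.46 in shBruce MEFs. The line difference of Txnip ranged from -1.24 to -1.03 in FM and from -1.24 (without shBruce Starv 3) to -0.18 (without shBruce Starv 1) in Starv, and its interaction from -0.070 to 0.98. Without both replicate 3 libraries these were -1.24 in Starv and -0.20 for the interaction. Calls over all genes ranged, by the library left out, from 1149 to 3212 for starvation in shRenilla MEFs (2061 with all libraries), from 1855 to 4009 in shBruce MEFs (2790), from 0 to 32 between the lines in FM (0) and from 0 (without shRenilla Starv 1) to 5735 (without shBruce Starv 3) in Starv (2907). Members called ranged from 4 to 5, 4 to 7, 0 to 1 and 0 to 4, and list genes from 4 to 7, 6 to 11, 0 to 0 and 0 to 16. No gene was called in the interaction in any of these.

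With only the 2 conditions compared in the fit, calls were 5013 for starvation in shRenilla MEFs (10 list genes), 956 in shBruce MEFs (3 list genes), 597 between the lines in FM (1 member, Txnip) and 0 in Starv (0 list genes). The starvation calls of Arrdc1, Mlxip, Mxd4, Smurf1, Smurf2 and Txnrd1 in shBruce MEFs were lost in this fit. With the length and GC trends removed, list genes called were 10, 12 and 0 for starvation in shRenilla, in shBruce and the lines in Starv, where 809 genes were called, and 2 genes were called in FM. Without both replicate 3 libraries of shBruce MEFs, calls were 3554 for starvation in shRenilla MEFs, 33 between the lines in FM (1 member) and 6158 in Starv (5 members and 16 list genes). DESeq2's Wald test called 76 genes between the lines in FM and 2 members in Starv, and with no filter on low counts 7 genes were called in FM. The cause of these shifts was not tested. Direction held under every setting for the starvation differences of all 7 members, and line differences of Arrdc1, Arrdc2, Arrdc3, Mlxip and Mlx changed sign. Among them was Arrdc1 in Starv, at 0.41 (interval 0.07 to 0.74) in the main fit and -0.058 at the lowest over the other settings.

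Same-numbered libraries of 2 conditions had correlations of their deviations from -0.456 to 0.157. Between shBruce FM and shBruce Starv they were 0.013 to 0.119. The deviations also followed transcript length (Spearman from -0.661 to 0.540 by library). These correlations therefore cannot show whether replicate numbers pair the samples. With the replicate block, calls between the lines in Starv were 1932 in place of 2907. With the block and the trends removed together, calls were 1 in Starv (0 list genes), 2 in FM, and 11 list genes for starvation in shBruce MEFs. Arrdc4 had low raw counts, from 15 to 186, beside 96 to 4625 for Txnip. Its standard errors were nevertheless below those of Txnip, at 0.28 against 0.38 for starvation in shRenilla MEFs and 0.30 against 0.40 in shBruce MEFs. Those of Mlx were lower still, at 0.13 in both lines.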
